A study of Mus musculus with 18 samples.

Results

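With its partner CLOCK, the circadian transcription factor BMAL1 binds E-boxes in DNA and drives a daily cycle of gene expression. Its binding at the genes of the MAP kinase cascade and of the Dusp phosphatases was described in 3 organs (liver, kidney, heart) of C57BL/6 mice, wild type and aged 3 to 6 months, which had free access to food under a cycle of 12 h light and 12 h dark. Genes were chosen by symbol among the protein-coding genes of RefSeq GRCm38: those beginning with Map2k, Map3k, Map4k, Mapkapk or Mapk, or with Dusp, followed by a digit. The rule gave 76 of 21887 genes, of which 46 are kinases, 24 are Dusp genes and 6 are scaffold or interacting proteins. A gene was counted as having a peak when the centre of a peak lay inside it or within 10 kb of either end.

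Chromatin immunoprecipitation with sequencing (ChIP-seq) and input libraries came from 3 mice per tissue, the same animals for each tissue, taken 6 h after lights on. The series had 18 libraries in all, with 3 ChIP and 3 input libraries per tissue. The authors pooled the libraries of a tissue to make its peak list, so the lists carry no spread between animals, no difference below was tested, and the read depth is unknown. The 3 heart input libraries have kidney in their source label but heart in title and tissue label; they were kept as heart input, and whether the heart list was made with kidney input was not tested. There were 4813 peaks in the liver list, 4034 in the kidney list and 2519 in the heart list. Each peak had a score from the authors, whose scale is not given in the sources used here. Scores are therefore compared only within a list, where rank 1 is the highest score and peaks of equal score share a rank. Of 10 genes typical of liver, such as Alb and Apob, 3 had a liver peak and none a kidney or heart peak. Of 10 kidney genes, 5 had a kidney peak, 3 a liver peak and 1 a heart peak, and of 10 heart genes 2 had a heart peak, 1 a liver peak and 2 a kidney peak. Over all protein-coding genes, 18.1% had a liver peak, 18% a kidney peak and 11.5% a heart peak. The heart genes had a kidney peak as often as a heart peak, so these counts do not identify the heart list.

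MAP kinase cascades pass a signal from the cell surface or from stress along a chain of kinases. A MAP4K or a small GTPase activates a MAP3K, the MAP3K phosphorylates a MAP2K, and the MAP2K phosphorylates a MAP kinase on a threonine and a tyrosine of its activation loop. The ERK kinases mainly answer growth factors, whereas the JNK and p38 kinases mainly answer stress and cytokines. Dusp genes encode dual-specificity phosphatases. Those with a kinase-binding domain remove both phosphates from MAP kinases and so end the signal, and many of them are themselves induced by the pathway they inhibit.

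BMAL1 peaks lay at 43 of the 76 genes (56.6%), where 30.7% of all protein-coding genes had a peak in any tissue. In liver 23 genes had a peak (30.3%, against 18.1% of all protein-coding genes), in kidney 25 (32.9%, against 18%) and in heart 16 (21.1%, against 11.5%). The 24 Dusp genes included 8 with a liver peak, 10 with a kidney peak and 8 with a heart peak, and the 46 kinases 14, 15 and 8. The shares over all 76 genes were above the background shares in each tissue, by counts with no test; the roles below differ in this. The median length of the 76 genes was 21.2 kb, against 17.2 kb over all protein-coding genes; a longer gene offers more room for a peak, and the part of length in these shares was not tested.

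**Figure D1:**
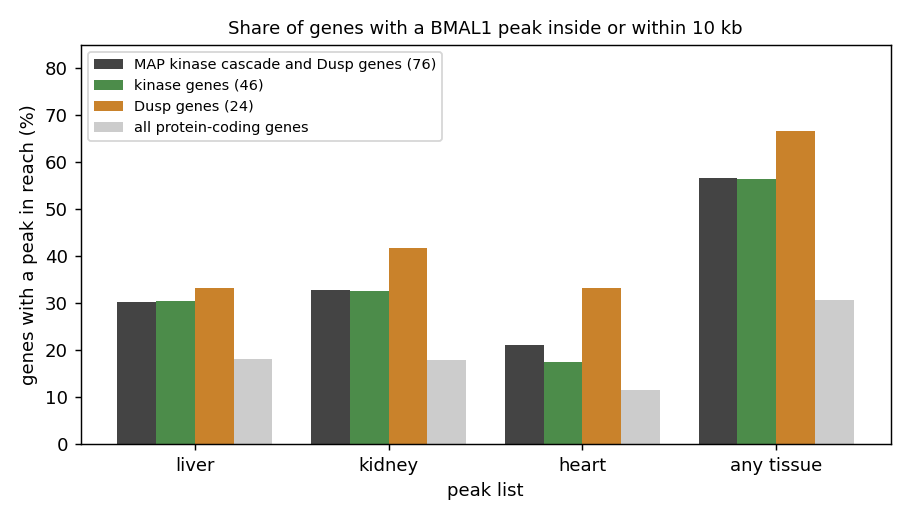
Share of genes (%) with a BMAL1 peak inside the gene or within 10 kb, by peak list, for all 76 MAP kinase cascade and Dusp genes, the 46 kinases, the 24 Dusp genes and all protein-coding genes. In each list the grey bar of all protein-coding genes (18.1% in liver, 18% in kidney, 11.5% in heart) is the lowest.

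Of the 43 bound genes, 29 had peaks in 1 tissue only. Genes of 1 tissue were also the larger part of the 6709 protein-coding genes with a peak (1533 liver, 1463 kidney, 941 heart). Peaks of all 3 tissues lay at 7 genes, where 4.35% of all protein-coding genes had them: Mapk6, Mapk8, Mapkapk3, Map3k5, Dusp3, Dusp4 and Dusp7. Liver and kidney, without heart, shared 5 genes (background 5.42%): Map2k6, Map4k1, Map4k2, Dusp11 and Dusp12. Kidney and heart, without liver, had 2 genes in common (background 1.57%), Dusp1 and Dusp2, and no gene had peaks of liver and heart alone (background 1.32%). Peaks of liver only were found at 11 genes (background 7%), of kidney only at 11 (background 6.68%) and of heart only at 7 (background 4.3%).

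**Figure D2:**
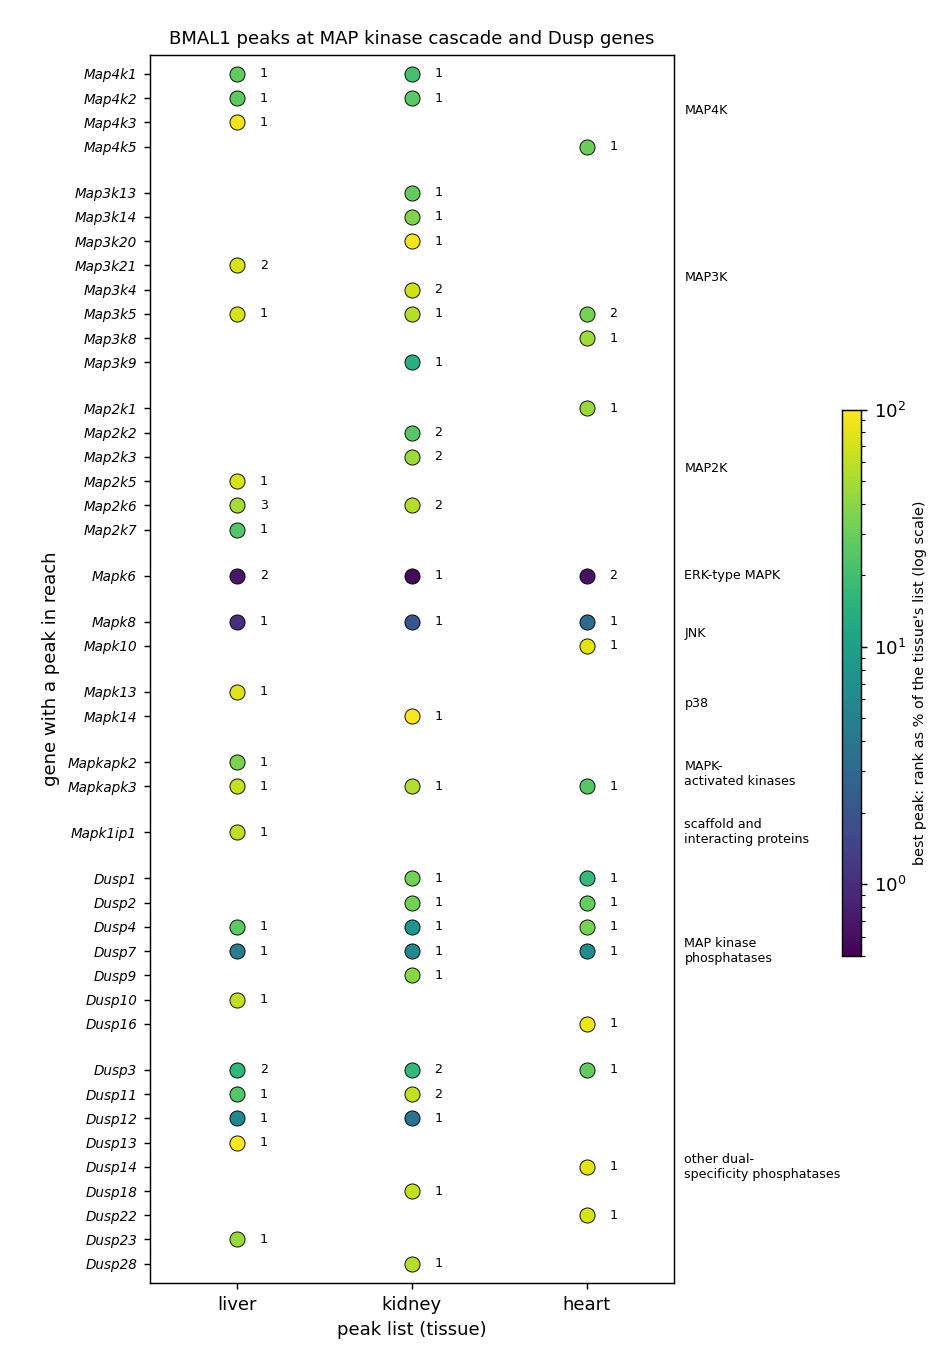
MAP kinase cascade and Dusp genes with a BMAL1 peak (1 of the 43 is not shown), by role (rows) and peak list (columns). The number beside a dot counts the peaks, and the colour gives the rank of the best peak as a percentage of the tissue's list on a log scale, with dark for the highest scores; Mapk6 and Mapk8 are dark in all 3 columns.

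Overlapping peaks of the lists were merged, which gave 54 regions at these genes. Of these, 37 were found in 1 tissue (68.5%, against 77.9% of the 7409 regions within 10 kb of any protein-coding gene), 11 in 2 tissues and 6 in all 3 (11.1%, against 6.44%). The regions common to all tissues lay at 6 genes, where 3.09% of all protein-coding genes had such a region: Mapk6, Mapk8, Mapkapk3, Dusp3, Dusp4 and Dusp7. Within them the centres of the tissue peaks lay 14 to 95 bp apart at most. Only overlapping peaks were merged, which by itself keeps the centres close. Where liver and kidney both had peaks at a gene, they shared a region at 12 of 12 genes, where 80.7% of all protein-coding genes with peaks of both did. For liver and heart the count was 6 of 7 (background 66%) and for kidney and heart 8 of 9 (background 73%), with Map3k5 the exception in both. These counts rest on 7 to 12 genes, and no test was made.

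Among these genes, the peaks of highest score in each list lay at the terminal MAP kinases Mapk6 and Mapk8. The other terminal MAP kinases named below had weaker peaks or none. Mapk6 encodes ERK3, an atypical MAP kinase whose activation loop lacks the usual tyrosine. A region just outside its start scored 218 in liver (rank 33 of 4813), 197 in kidney (rank 23 of 4034) and 222 in heart (rank 16 of 2519), and it was the highest of all peaks at these genes in each list. In the liver list it spanned chr9:75410011-75410252 (GRCm38), with the gene at chr9:75386782-75410016 on the minus strand. Before the nearer annotated start, its centre was 115 bp away in the liver list, 125 bp away in the kidney list and 96 bp away in the heart list. A second peak, inside the gene and 787 bp from the first in liver, lay at the other annotated start of Mapk6. Its centre was 15 bp after that start in liver and 6 bp before it in heart. This peak scored 84 in liver (rank 680) and 55 in heart (rank 414), and the kidney list had none there. The start of 4933433G15Rik also lies within 1 kb of these peaks, so they cannot be given to Mapk6 alone.

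Mapk8 encodes JNK1, which phosphorylates the JUN transcription factor. It had 1 region, which spans the gene's 5′ end, at chr14:33447315-33447556 in the liver list, with scores of 197 in liver (rank 49), 139 in kidney (rank 83) and 129 in heart (rank 74). The centres of the liver, kidney and heart peaks lay 82, 22 and 4 bp outside the gene, and 277, 217 and 199 bp before the nearer start of the promoter table, which lies inside it. Its ranks lay at 1.02% (liver), 2.06% (kidney) and 2.94% (heart) of the list length, so the region was in the top 3% of each list.

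The 250 bases before the start of both genes, where the strongest peaks of the group lie, are shown (RefSeq, GRCm38.p6, minus strand, 5′ to 3′). The Mapk6 window, chr9:75410017-75410266, is covered by the liver peak over 236 bases and by the kidney peak over 188, and the Mapk8 window, chr14:33447159-33447408, over 94 and 127. Capitals in this and later windows mark CACGTG, the E-box bound by CLOCK and BMAL1, or AACGTG and its reverse complement CACGTT; neither window below holds these letters.
Mapk6: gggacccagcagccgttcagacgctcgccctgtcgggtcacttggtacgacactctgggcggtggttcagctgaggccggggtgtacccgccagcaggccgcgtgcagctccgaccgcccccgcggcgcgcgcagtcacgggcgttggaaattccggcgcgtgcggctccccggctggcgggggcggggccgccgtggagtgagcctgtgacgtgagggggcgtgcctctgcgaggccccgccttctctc
Mapk8: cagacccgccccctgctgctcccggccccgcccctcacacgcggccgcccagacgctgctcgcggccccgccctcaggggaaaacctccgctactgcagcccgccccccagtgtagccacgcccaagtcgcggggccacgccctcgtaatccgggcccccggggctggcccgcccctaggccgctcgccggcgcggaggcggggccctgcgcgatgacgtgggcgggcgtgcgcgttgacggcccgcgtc

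Of the other MAP kinases, some had weaker peaks, each in a single tissue. Mapk10, the JNK gene best known from neurons, had a heart peak inside the gene with a score of 17 (rank 1975 of 2519). Of the p38 genes, Mapk13 had a liver peak of score 25 at 8.42 kb from the gene, and Mapk14 a kidney peak of score 14 at 8.51 kb, nearer to Slc26a8. All 3 ranked in the lower 50% of their list. Mapk3, Mapk4, Mapk7, Mapk9, Mapk11, Mapk12 and Mapk15 had no peak in reach in any list.

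Among the 10 phosphatases with a kinase-binding domain, 7 were bound: 3 in liver (30%, against 18.1% of all protein-coding genes), 5 in kidney (50%, against 18%) and 5 in heart (50%, against 11.5%). Dusp7, a cytoplasmic phosphatase that prefers ERK, had a single region outside its start, at chr9:106367796-106368037 in the liver list. It scored 135 in liver (rank 213), 95 in kidney (rank 229) and 94 in heart (rank 159), and its centre lay 716 to 730 bp before the start in the 3 lists. Dusp4, a nuclear phosphatase of ERK, JNK and p38, had a region 2.59 to 2.61 kb outside the gene, at chr8:34804888-34805129 in the liver list. Its scores were 61 in liver (rank 1293), 81 in kidney (rank 329) and 33 in heart (rank 855), so that its rank lay at 26.9% (liver), 8.16% (kidney) and 33.9% (heart) of the list length.

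Dusp1 and Dusp2 were listed in kidney and heart and not in liver. Dusp1 is an immediate early gene induced by stress and glucocorticoids, whose phosphatase acts on p38 and JNK. Its peak scored 38 in kidney (rank 1295 of 4034) and 53 in heart (rank 442 of 2519), centred 137 and 106 bp before the start. Dusp2, a nuclear phosphatase of immune cells, had a region inside the gene with scores of 38 in kidney (rank 1295) and 37 in heart (rank 723), centred 200 and 210 bp after the start. The start of Gm46762 also lies within 1 kb of both Dusp2 peaks. A site under the threshold of the liver list and a site without binding cannot be told apart here.

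In the Dusp1 window, chr17:26508473-26508722 on the minus strand, both Dusp1 peaks cover an E-box. The letters CACGTG lie 126 to 121 bases before the start, and their middle is 14 bp from the centre of the kidney peak and 18 bp from that of the heart peak. The Dusp2 window, chr2:127335909-127336158 on the plus strand, also holds CACGTG, 109 to 104 bases before the start, but there the peaks lie after the start, with centres 306 and 316 bp from these letters, and cover no base of the window.
Dusp1: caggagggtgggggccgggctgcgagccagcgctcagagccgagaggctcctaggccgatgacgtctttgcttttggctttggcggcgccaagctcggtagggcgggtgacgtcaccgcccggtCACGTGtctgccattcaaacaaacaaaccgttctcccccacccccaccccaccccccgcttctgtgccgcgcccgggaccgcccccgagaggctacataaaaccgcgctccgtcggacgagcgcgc
Dusp2: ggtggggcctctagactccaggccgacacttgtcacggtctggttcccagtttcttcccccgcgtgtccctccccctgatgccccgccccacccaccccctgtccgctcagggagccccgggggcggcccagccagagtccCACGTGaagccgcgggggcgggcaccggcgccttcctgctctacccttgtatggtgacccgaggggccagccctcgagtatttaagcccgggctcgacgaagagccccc

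Of the remaining kinase-binding phosphatases, Dusp9 had a kidney peak of score 33 (rank 1588) inside the gene, Dusp10, which prefers JNK and p38, a liver peak of score 32 (rank 2961) located 17607 bp after its start, and Dusp16, which prefers JNK, a heart peak of score 16 (rank 2215) located 31375 bp after its start. The ERK phosphatases Dusp5 and Dusp6, and Dusp8, had no peak in reach in the 3 lists.

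Of the 14 other dual-specificity phosphatases, 9 were bound: 5 in liver (35.7%, background 18.1%), 5 in kidney (35.7%, background 18%) and 3 in heart (21.4%, background 11.5%). Dusp12, which carries a zinc-binding domain, had a region inside the gene in liver and kidney, with scores of 121 (rank 278) and 112 (rank 145) and centres 466 and 446 bp after the start. The heart list held no peak in reach of Dusp12, although in kidney the region was in the top 4% of the list. Dusp3 encodes a small phosphatase that acts on ERK and JNK. It had 2 regions. The region after the start scored 60 in liver, 50 in kidney and 38 in heart (ranks 1325, 838 and 701), and the region before it scored 78 in liver (rank 788) and 56 in kidney (rank 686) and was not in the heart list. Centres of the 2 regions lay 592 bp apart in liver and 610 bp in kidney.

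In the Dusp3 window, chr11:101984792-101985041 on the minus strand, AACGTG lies inside the liver and kidney peaks of the region before the start. The middle of these letters, 144 to 139 bases before the start, is 36 bp from the centre of the liver peak and 8 bp from that of the kidney peak.
Dusp3: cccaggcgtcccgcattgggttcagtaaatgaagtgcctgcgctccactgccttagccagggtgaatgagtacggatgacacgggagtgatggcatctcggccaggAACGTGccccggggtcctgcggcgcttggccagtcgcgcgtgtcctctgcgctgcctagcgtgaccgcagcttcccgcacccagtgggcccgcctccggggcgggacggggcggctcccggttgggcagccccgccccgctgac

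Dusp11, a phosphatase of RNA, had a region 5.12 kb outside the gene with scores of 65 in liver (rank 1157) and 23 in kidney (rank 2474). A second kidney peak, of score 15, lay 2.87 kb farther out and nearer to Tprkb. The other peaks were in 1 tissue each. Dusp23 had a liver peak of score 43 (rank 2127) at 297 bp after its start, and Dusp13 a liver peak of score 17 (rank 4664) at 9.07 kb, nearer to Samd8. In kidney, Dusp28 and Dusp18 had peaks of score 25 (rank 2237) and 23 (rank 2474); the peak at Dusp28 lay within 1 kb of the start of Rnpepl1. In heart, Dusp22, a regulator of JNK signalling, and Dusp14 had peaks of score 18 (rank 1826) and 17 (rank 1975), the latter 12 bp after the start. Dusp15, Dusp19, Dusp21, Dusp26 and Dusp27 had no peak in reach.

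The MAPK-activated kinases act below p38 and, in part, ERK. Mapkapk3 had a region inside the gene in all tissues, at chr9:107289604-107289845 in the liver list, with scores of 31 in liver (rank 3066 of 4813), 26 in kidney (rank 2132 of 4034) and 41 in heart (rank 628 of 2519). These ranks lay at 63.7% (liver), 52.9% (kidney) and 24.9% (heart) of the list length. Cish is also within reach of this region. Mapkapk2, the main p38-activated kinase in control of cytokine messenger RNA, had a liver peak of score 51 (rank 1693) inside the gene, 13371 bp after the start. Mapkapk5 had no peak in reach.

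The Mapkapk3 window that the peaks cover most is chr9:107289397-107289646 on the minus strand. It has 43 bases under the liver peak, 71 under the kidney peak and 0 under the heart peak. This window holds CACGTG beside the region and not within it. The letters lie 167 to 162 bases before that start, 164 bp from the centre of the liver peak, 108 bp from that of the kidney peak and 204 bp from that of the heart peak.
Mapkapk3: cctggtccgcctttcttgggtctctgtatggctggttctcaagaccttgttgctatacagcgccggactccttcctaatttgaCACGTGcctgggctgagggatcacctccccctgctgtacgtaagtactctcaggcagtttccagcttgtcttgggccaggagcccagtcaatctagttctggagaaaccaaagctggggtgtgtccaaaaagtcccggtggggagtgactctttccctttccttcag

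Of the 7 MAP2K genes, 6 were bound: 3 in liver (background 18.1%), 3 in kidney (background 18%) and 1 in heart (14.3%, near the background of 11.5%). Map2k6, an activator of p38, had 3 liver peaks, the most of any of the 76 genes in 1 list, and 2 kidney peaks. Its region at the start scored 40 in liver (rank 2345) and 19 in kidney (rank 3031), centred 83 and 63 bp before the start. A region far inside the gene scored 36 in liver (rank 2621) and 25 in kidney (rank 2237), and a liver peak of score 34 lay 11.4 kb from it. Map2k7, an activator of JNK, had a liver peak of score 65 (rank 1157) at 11 bp after its start, the highest score of a gene with liver peaks only. Map2k1, which encodes MEK1, the activator of ERK, had a heart peak of score 27 (rank 1123) at 154 bp after its start. Map2k2, which encodes MEK2, had kidney peaks of score 45 (rank 1003) and 22 (rank 2591) outside the gene, at 9.73 and 4.82 kb, the first nearer to Zbtb7a. Map2k3, an activator of p38, had kidney peaks of score 29 (rank 1874) and 20 (rank 2878), the latter 61 bp before its start and within 1 kb of the start of the antisense gene Map2k3os. Map2k5, the activator of ERK5, had a liver peak of score 27 (rank 3458) inside the gene, and Map2k4 had none.

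The 18 MAP3K genes had peaks at 8: 2 in liver (11.1%, below the background of 18.1%), 6 in kidney (33.3%, background 18%) and 2 in heart (11.1%, near the background of 11.5%). Map3k5 encodes ASK1, a kinase activated by oxidative stress. It had peaks in all 3 lists but not at the same sites. The heart peaks scored 33 (rank 855), centred 748 bp before the start, and 19 (rank 1708), 11200 bp after it. The liver and kidney peaks, of score 27 (rank 3458) and 25 (rank 2237), formed a region beyond the far end of the gene, at 6.24 and 6.19 kb from it and within 1 kb of the start of Map7. The nearest liver and heart peaks were 203.26 kb apart.

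Among MAP3K genes with kidney peaks only, Map3k9, a mixed-lineage kinase of the JNK pathway, had the highest score, 61 (rank 585), centred 56 bp before its start. Map3k13, another kinase of the JNK pathway, had a peak of score 41 (rank 1155) inside the gene, and Map3k14, the NF-kappa-B-inducing kinase, a peak of score 35 (rank 1473) at 85 bp before its start. Map3k4 had kidney peaks of score 21 and 19 (ranks 2742 and 3031) and Map3k20 a kidney peak of score 15 (rank 3635). Map3k21 had 2 liver peaks of score 27 and 26 (ranks 3458 and 3576), the latter 233 bp before its start. Map3k8, a kinase upstream of ERK in inflammation, had a heart peak of score 26 (rank 1184) located 125 bp outside the gene. No peak was in reach of Map3k1, Map3k2, Map3k3, Map3k6, Map3k7, Map3k10, Map3k11, Map3k12, Map3k15 or Map3k19.

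At the top of the cascade, 4 of 5 MAP4K genes had a peak in any tissue (background 30.7%), and for Map4k1 and Map4k2 the only peaks were ones nearer to another gene. Map4k1, the haematopoietic progenitor kinase, had a region 4282 bp (liver) and 4305 bp (kidney) before its start, with scores of 60 in liver (rank 1325) and 50 in kidney (rank 838); Eif3k was nearer to it. Map4k2 had a region 8.3 kb outside the gene with scores of 61 in liver (rank 1293) and 44 in kidney (rank 1037), which lay within 1 kb of the start of Sf1. Map4k5 had a heart peak of score 36 (rank 763) at 212 bp after its start, also within 1 kb of the start of Atl1, and Map4k3 a liver peak of score 21 (rank 4212) inside the gene. Map4k4 had none. Of the 6 scaffold and interacting proteins, only Mapk1ip1 had a peak in reach, in liver with a score of 33 (rank 2869), and Ppp2r2d was nearer to it. Mapk1ip1l, Mapk8ip1, Mapk8ip2, Mapk8ip3 and Map3k7cl had none in the 3 lists.

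Regions found in several tissues were set side by side by their rank. The order Mapk6, Mapk8, Dusp7 was the same in the 3 lists, ahead of the other regions common to all tissues. Dusp4, Dusp3 and Mapkapk3 changed places between lists: Dusp4 ranked above the other 2 in liver and kidney, whereas Mapkapk3 did so in heart and was lowest of the 6 in liver and kidney. These orders come from 1 list per tissue and have no estimate of error. Some rest on small gaps: in liver the Dusp4 and Dusp3 regions scored 61 and 60. In heart the regions of Mapkapk3, Dusp3 and Dusp4 scored 41, 38 and 33.

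**Figure D3:**
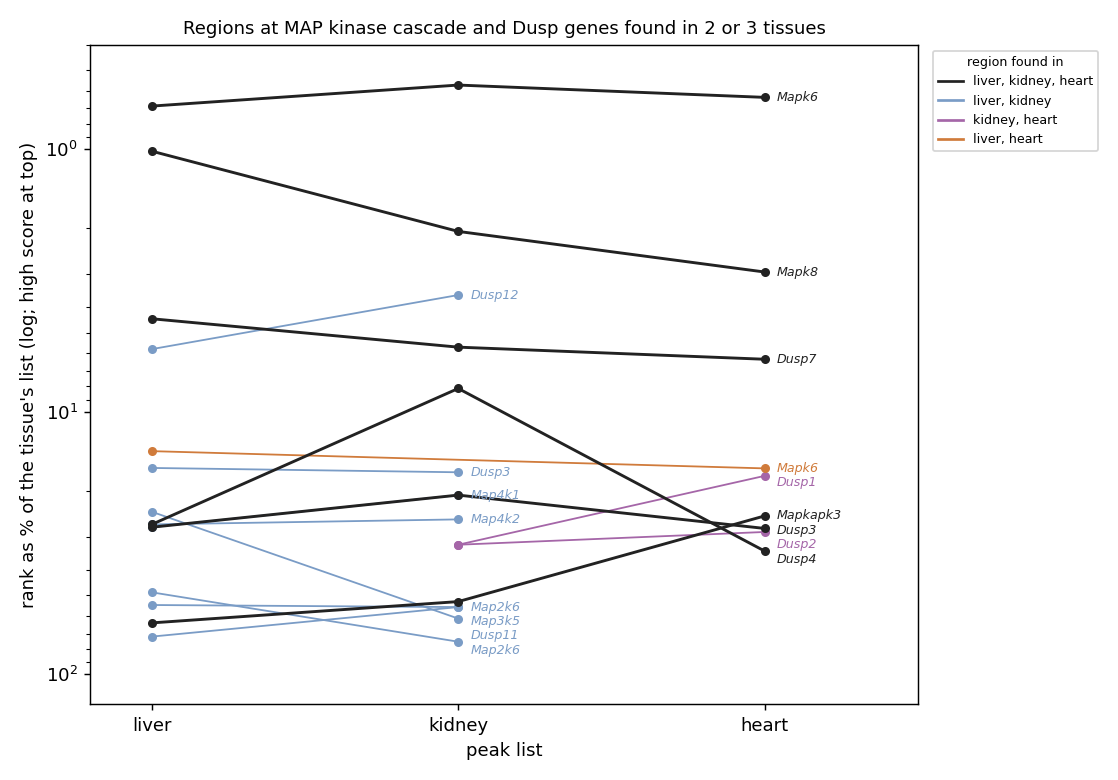
Rank of each region found in 2 or 3 tissues as a percentage of the tissue's list (log scale, highest scores at the top), for liver, kidney and heart. Points are peaks and lines join the peaks of 1 region; the orange line passes the kidney column without a point there. The Mapk6 region lies at the top in all lists, under 0.69%.

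Peaks at these genes were set beside all peaks within 10 kb of a protein-coding gene and beside all peaks of a list. The liver list had 28 of them, the kidney list 31, the heart list 18. The share of peaks that overlapped no peak of the other tissues was 46.4% in liver (13 of 28, exact Clopper-Pearson 95% interval 27.5 to 66.1%), 48.4% in kidney (15 of 31, 30.2 to 66.9%) and 50% in heart (9 of 18, 26.0 to 74.0%). Among all peaks within 10 kb of a protein-coding gene the shares were 63.1, 56.6 and 62.8%, inside these intervals, which cover counting error only. Over all peaks of a list they were 66.5, 57.7 and 65%, of which the liver share lay just above its interval. Shared peaks had higher scores than single-tissue peaks at these genes, with medians of 61 against 27 in liver, 47 against 23 in kidney and 53 against 19 in heart. The same held for all peaks within 10 kb of a protein-coding gene, with medians of 68 against 33, 45 against 23 and 52 against 21.

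Gene starts were known for 58 of the 76 genes and for 17492 protein-coding genes in all. A peak counted as lying at a start when its centre was within 1 kb of the annotated start of any gene. This held for 50% of the liver peaks at these genes (14 of 28, interval 30.6 to 69.4%), 51.6% in kidney (16 of 31, 33.1 to 69.8%) and 66.7% in heart (12 of 18, 41.0 to 86.7%). Among all peaks within 10 kb of a protein-coding gene the shares were 31.5, 42.5 and 39.3%. The liver and kidney shares lay inside the intervals and the heart share below its interval. Over all peaks of a list the shares were 26.7, 38.3 and 34.5%, below the interval in liver and heart and inside it in kidney; neighbouring peaks at 1 gene are not independent, and no test was made. Of the shared peaks, 11 of 15 in liver, 12 of 16 in kidney and 8 of 9 in heart lay at a start, against 3 of 13, 4 of 15 and 4 of 9 of the single-tissue peaks. Among all peaks within 10 kb of a protein-coding gene, 50.2, 51.4 and 58.8% of the shared peaks and 20.6, 35.7 and 27.6% of the single-tissue peaks lay at a start.

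**Figure D4:**
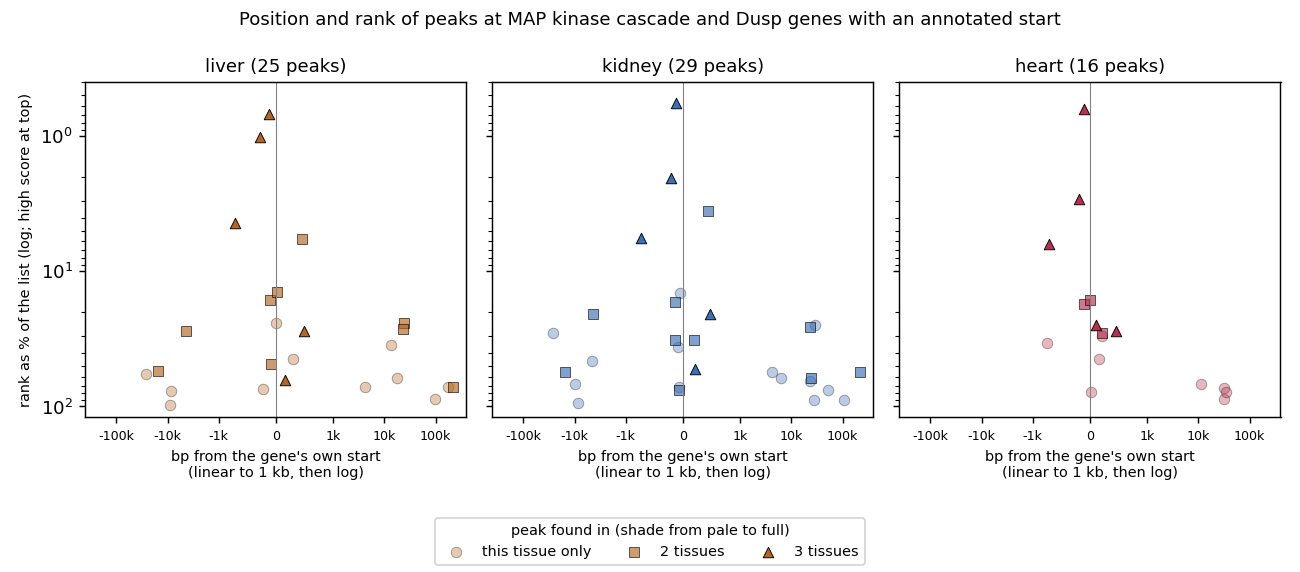
Position of each peak relative to the start of its own gene (x axis, bp, linear to 1 kb and then log; negative before the start) and its rank as a percentage of the list (y axis, log, highest scores at the top) for 25 liver, 29 kidney and 16 heart peaks. Marker shape gives the number of tissues with the peak; the triangles of highest rank, at Mapk6, Mapk8 and Dusp7, lie within 1 kb before the start, and the peaks beyond 10 kb lie lower.

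The E-box was then counted in the 250 bases before each start. Of 21263 windows of protein-coding genes, 6.63% held CACGTG and 3.9% held AACGTG or CACGTT. Among windows with a peak centre of any tissue within 300 bp of the start, 25.9% held CACGTG and 7.04% AACGTG or CACGTT. The 58 genes had 74 windows, since some have several starts. CACGTG was found in 6 of these, those of Dusp1, Dusp2, Mapkapk3, Map3k12, Map4k1 and Mapk12. A peak centre lay within 300 bp of the start in 18 of the 74 windows, against 9.02% of all windows. Of these 18 windows, 3 held CACGTG (16.7%) and 2 held AACGTG or CACGTT (11.1%), those of Dusp3 and Map2k6. By tissue, CACGTG was in 0 of 9 windows with a liver peak, 3 of 11 with a kidney peak and 2 of 9 with a heart peak. Among all protein-coding windows with a peak of that tissue the shares were 32.8, 29.8 and 28.3%. These counts are small and were not tested. Of the 3 windows with CACGTG, only that of Dusp1 had the letters inside a peak. Over all 74 windows, 4 held AACGTG or CACGTT (5.41%). The windows of Mapk6 and Mapk8 held neither. The Mapk6 window printed above holds all 188 bp of the higher-scoring kidney peak. It also holds 236 of the 242 bp of the liver peak and 195 of the 198 bp of the heart peak. The Mapk8 peaks reach farther beyond their printed window, which holds 94 bp (liver), 127 bp (kidney) and 150 bp (heart) of them. For Mapk8 the count therefore says only that these letters are absent from the 250 bases.

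Several peaks could belong to a neighbour. Of the 77 pairs of a peak and a gene, 28 had another protein-coding gene in reach of the peak. In 12 pairs another protein-coding gene was nearer to the peak, 5 in liver, 7 in kidney and none in heart. These 12 were the pairs of Map4k1 and Map4k2, the liver and kidney pairs of Map3k5, and those of Mapk14, Mapk1ip1, Dusp13 and Dusp28, with 1 of the peaks of Map2k2 and 1 of Dusp11. The outermost peaks kept were those of Map2k2 at 9.73 kb and Map3k4 at 9.56 kb (kidney scores 45 and 21). The nearest peaks left out were liver peaks at 12.5 kb from Mapk14 (score 25), 12.7 kb from Dusp5 (score 18) and 12.8 kb from Map2k2 (score 33).

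Genes that feed the cascade or act below it, but fall outside the symbol rule, were listed by role. Of 63, 16 had a liver peak (25.4%, background 18.1%), 14 a kidney peak (22.2%, background 18%) and 11 a heart peak (17.5%, background 11.5%). A peak in any tissue was found at 25 (39.7%, where the background is 30.7%). The RAS and RAF input had peaks at 5 of 18 genes (27.8%, below this background). Sos2, an exchange factor of RAS, was among those with peaks in all tissues, and Hras, Nras and Grb2 had none. Negative feedback genes of the Spry and Spred type had peaks at 2 of 8 (25%, also below it), and inputs of the stress branch at 5 of 12 (41.7%). Of the downstream kinases 4 of 8 had a peak (50%). Mknk2, which phosphorylates the translation factor eIF4E, scored 168 in liver (rank 93), 145 in kidney (rank 75) and 116 in heart (rank 98). Rps6ka4, a nuclear kinase of histones and CREB, scored 91 (rank 570), 110 (rank 153) and 124 (rank 83).

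Target transcription factors of the cascade had peaks at 9 of 17 (52.9%, background 30.7%). Fosl1, a partner of JUN, scored 140 in liver (rank 189), 151 in kidney (rank 62) and 172 in heart (rank 34). Junb scored 192 (rank 55), 68 (rank 472) and 92 (rank 168). Fos, Jun, Jund and Myc had no peak in reach, and Egr1 had a liver peak of score 34 (rank 2780).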

How the data were processed

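Peak lists of BMAL1 ChIP-seq were used, 1 per tissue. Per the series' design text the authors made each from all ChIP and input replicates of the tissue. The submitters' processing notes name Bowtie2, SAMtools and HOMER, without roles, and the build mm10, which is GRCm38. Each peak carries a whole-number score that the authors deposited; its scale is not given in the sources used here.

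Genes came from RefSeq GRCm38.p6 (21887 protein-coding genes on chromosomes), and starts and promoter windows from RefSeq of the same build. All 76 symbols matched and 58 had a start. Windows were printed for genes with a peak centre within 300 bp of a start in more than 1 tissue. The 6 genes of best mean rank, as a percentage of the list, were taken, whatever motifs their windows held. Where a gene had several windows, the window most covered by its peaks is shown. Peaks that overlapped by 1 bp were merged. Coordinates count from 1. Named genes are those with peaks in all tissues, the 10 highest-scoring genes per list and up to 5 single-tissue genes per list; the rest are added for completeness, and a few are not reported here. The members and lists were chosen with earlier results of these data known. No test was made, since no value per animal was used. The code (Python 3.11.15, pandas 2.3.3, scipy 1.17.1) was checked on artificial peaks placed at known positions. Alternatives changed the window, assignment, threshold, overlap, start distance and members.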

Additional observations from a re-analysis of the deposited data

How the results depend on the processing

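Of 88 comparisons of a count or share with its value under an alternative, 76 stayed within 1.5 times the count or within the interval of the share, and 12 did not. Counting peaks inside the gene only gave 12 genes with a liver peak, 9 with a kidney peak, 2 with peaks of all 3 tissues and 2 regions common to all 3. With 50 kb either side, 41 genes had a liver peak and 40 a kidney peak. The upper 50% of each list by score left 13 genes with a liver peak and 16 with a kidney peak, and 73.3% of the liver peaks at a gene start. The top 2000 peaks of each list left 11 genes with a liver peak and 16 with a kidney peak, and 23.1% of liver peaks in no other tissue. These settings admit more or fewer peaks by construction. Under the 7 alternatives that bear on it, the share of genes with a peak was above that of all protein-coding genes in 21 of 21 comparisons, by 1.23 times (kidney, inside the gene only) to 2.37 times (heart, nearest gene only). Leaving out a replicate was not run, since each list pools its replicates. No paired analysis was possible because each list pools its replicates. Depth is unknown, so a site missing from a list is not shown to be unbound.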
